A study of Mus musculus with 6 samples.

Results

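The proteins examined here coat lipid droplets, the cell's stores of neutral lipid, or control how droplets grow and are broken down. The set comprised the perilipins Plin2, Plin3, Plin4 and Plin5, the CIDE proteins Cidea, Cideb and Cidec, the small droplet protein Hilpda and the lipase inhibitor G0s2. Members were the probes whose symbol in the platform annotation was one of these 9 names, which gave 11 probes of the 25697 on the array. Plin5 and Hilpda had 2 probes each, and every probe was tested on its own, since probes of one gene share a target.

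RNA came from primary hepatocytes of male mice labelled wildtype on a c57Bl6/J background and 10 weeks old. The cells received DMSO as the vehicle, KD3010 or GW1516, and both compounds activate PPAR-delta, a nuclear receptor for fatty acids. Each of the 3 groups was measured on 2 bead arrays, named A and B. All groups shared this strain, sex, age and cell type. The sources used here give neither dose nor duration, so it is not known whether these matched between the agonists. Arrays A and B are labelled as technical replicates, and nothing in the labels says that they came from separate cultures or animals. The p-values below therefore measure the spread between arrays, which may be technical.

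Perilipins bind the droplet surface and limit the access of lipases. Plin2 is the main perilipin of hepatocytes and is stabilised by binding to lipid droplets, Plin3 moves from the cytosol onto newly formed droplets, Plin4 belongs mainly to adipose tissue and muscle, and Plin5 brings droplets close to mitochondria in oxidative tissues. The CIDE proteins act where droplets touch and let lipid pass from a smaller droplet to a larger one, and Cideb also takes part in the loading of very low density lipoprotein in the liver. Hilpda and G0s2 both inhibit the triglyceride lipase ATGL, the product of Pnpla2, and Plin2 and Hilpda are known targets of PPAR receptors in other settings.

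Between 10239 and 10805 probes per array were detected, that is, had a detection p-value below 0.05 against the negative control beads, at mean intensities between 953.2 and 1157. Of 11 hepatocyte markers with a probe, 9 were detected on all 6 arrays, and the probes of Alb and Tat were not detected on any. Adipocyte markers matter for this set because fat cells express many of its members. Of 8 adipocyte markers with a probe, 6 were not detected on any array, Adipoq, Plin1 and Lep among them, and Pparg alone was detected on all 6. The summed normalized level of the adipocyte list lay between 592.2 and 651.9 on the DMSO arrays, between 585.3 and 644.0 with KD3010 and between 580.5 and 643.2 with GW1516. Kupffer cell and macrophage markers summed to between 21738 and 22262 with DMSO, 22655 and 23860 with KD3010, and 27035 and 30880 with GW1516, although Cd14 was the one of 11 detected on all arrays and 7 were detected on none. The part of this shift in the GW1516 values below was not tested. Stellate cell markers summed to between 5604 and 5849, 5840 and 6509, and 4908 and 5806, in the same order of groups, with 3 of 11 detected on all arrays. Sinusoidal endothelial markers summed to between 2561 and 2832, 2562 and 2590, and 2732 and 2814, with 8 of 11 detected on all arrays.

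The promoter windows of Plin2, Hilpda and Plin5 are shown because these genes had the highest values against DMSO under KD3010 among the detected members. The windows run from 250 bases before to 50 bases after a transcript start, are taken from RefSeq on build GRCm38.p6 and are written 5′ to 3′ on the strand of the gene. For Hilpda, the window of the second of the 2 starts listed is given, since the first held neither motif. For Plin5, which also had 2 starts listed, the window of the first is given. The windows shown lie at chr4:86670010-86670309 on the minus strand, at chr6:29272376-29272675 on the plus strand and at chr17:56117499-56117798 on the minus strand. Capitals mark matches on either strand to AGGTCA, the hexamer that PPAR and its partner RXR read as a direct repeat, or to ACGTG, the core of the hypoxia response element.
Plin2: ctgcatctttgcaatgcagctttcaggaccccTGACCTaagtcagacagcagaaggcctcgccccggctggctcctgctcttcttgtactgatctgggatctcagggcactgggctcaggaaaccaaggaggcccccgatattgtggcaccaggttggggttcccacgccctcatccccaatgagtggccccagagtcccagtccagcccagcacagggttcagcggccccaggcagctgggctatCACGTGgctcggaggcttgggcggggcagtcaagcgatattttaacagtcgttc
Hilpda: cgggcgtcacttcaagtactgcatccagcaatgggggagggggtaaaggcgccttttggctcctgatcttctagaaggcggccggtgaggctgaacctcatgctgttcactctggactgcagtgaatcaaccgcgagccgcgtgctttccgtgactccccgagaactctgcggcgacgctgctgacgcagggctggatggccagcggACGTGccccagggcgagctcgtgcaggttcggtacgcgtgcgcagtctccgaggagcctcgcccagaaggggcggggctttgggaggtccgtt
Plin5: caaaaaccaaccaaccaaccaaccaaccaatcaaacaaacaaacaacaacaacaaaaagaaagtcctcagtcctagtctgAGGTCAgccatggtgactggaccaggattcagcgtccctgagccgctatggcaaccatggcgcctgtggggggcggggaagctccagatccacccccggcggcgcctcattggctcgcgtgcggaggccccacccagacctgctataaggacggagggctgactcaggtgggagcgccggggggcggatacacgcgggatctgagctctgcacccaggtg
The Plin2 window held TGACCT, the reverse complement of the hexamer, starting 218 bases before the transcript start. It also held CACGTG starting 4 bases before the start, in which both matches to ACGTG overlap because the 6 letters read alike on both strands. The Hilpda window held ACGTG starting 43 bases before the start, and the Plin5 window held AGGTCA starting 170 bases before it. The window of the second Plin5 start, not shown, held AGGTCA starting 14 bases after that start. Of 32851 promoter windows of the same length, 16.3% held AGGTCA on either strand and 19.6% held ACGTG. The full repeat AGGTCANAGGTCA was in 0.0396% of them and the looser AGGNCANAGGNCA in 0.381%. Neither was in any of the 11 windows examined, which covered 8 members and left out Cidea. These matches describe letters in a window and do not show binding.

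Of the 11 probes, 8 passed the filter on dim probes, which asked for detection on both arrays of at least 1 group. They represented 7 of the 9 genes. Plin3, Cideb, G0s2, Cidec, Plin2 and both Hilpda probes were detected on all 6 arrays. The Plin5 probe ILMN_3158565 was detected on the 4 agonist arrays and on neither DMSO array, so it entered through the groups in which it was brighter. Its detection p-values were 0.0564 and 0.160 with DMSO, 0.0113 and 0.00627 with KD3010, and 0.0376 and 0.0251 with GW1516, which places it just inside the filter. Cidea lay just outside, with detection p-values of 0.0639 and 0.0226 on the KD3010 arrays and values from 0.0539 to 0.147 on the other 4.

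**Figure D1:**
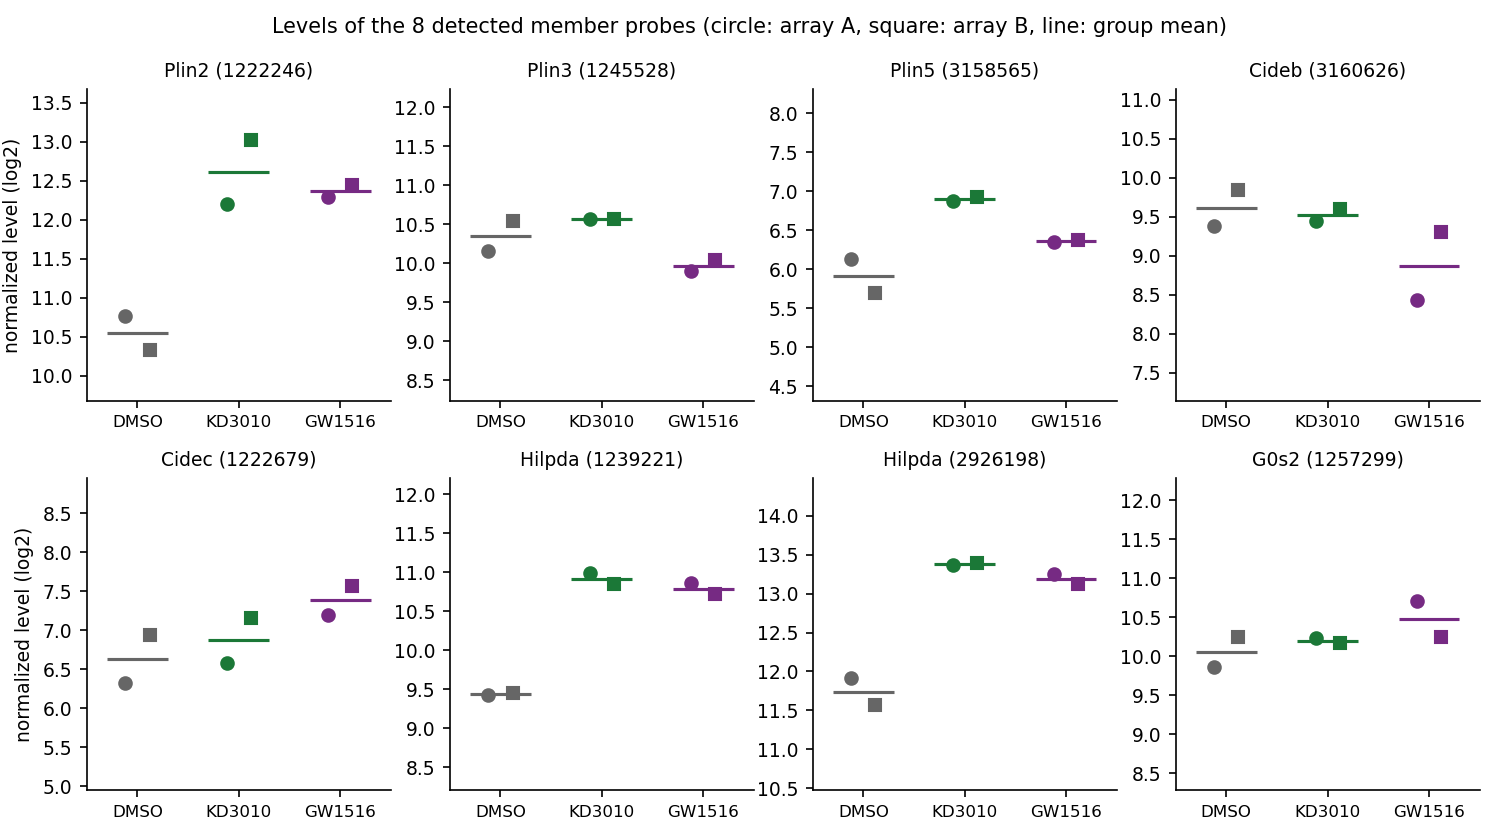
Normalized log2 level (background-corrected and quantile-normalized) of the 8 detected probes on each array, with probe numbers in the titles. Each panel spans the same range of log2 units around its own level. Plin2 and both Hilpda probes are higher on all 4 agonist arrays than on both DMSO arrays, while in G0s2 both agonists overlap with DMSO. Plin3, Cideb and Cidec differ less between groups than Plin2 and Hilpda do from DMSO.

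The droplet coat gene Plin2 and the lipase inhibitor gene Hilpda rose with KD3010, and Hilpda also rose with GW1516. Plin2 was higher with GW1516 by nearly the same amount, but did not pass the threshold there. In bulk RNA like this, fewer cells of a type and less RNA per cell cannot be told apart. The rule for a call was a change of 1.5-fold or more with an adjusted p-value under 0.05 in limma's test over all 10530 kept probes. With KD3010 against DMSO, 0.104% of these were called (0.0855% as higher), and with GW1516 against DMSO 0.095%, all of them higher. Both comparisons share the DMSO arrays. Of the 11 member probes, 3 were called with KD3010 (Plin2 and both of Hilpda) and 2 with GW1516 (both of Hilpda), all of them higher. The rises of Plin2 and Hilpda were known when the set was proposed, so they lend it no independent support.

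Plin2 stood at log2 levels of 10.76 and 10.33 on the DMSO arrays, 12.20 and 13.02 on the KD3010 arrays and 12.29 and 12.45 on the GW1516 arrays (probe ILMN_1222246). All 4 agonist arrays lay above both DMSO arrays, and the KD3010 arrays were the pair farthest apart. Of all probes tested, 21.5% had both KD3010 arrays above both DMSO arrays and 20.6% had both GW1516 arrays above them. The level with KD3010 was 4.18-fold that of DMSO, a log2 difference of 2.06 ± 0.26 (SE, n = 2 arrays each, limma adjusted p = 0.0239). With GW1516 it was 3.54-fold, a log2 difference of 1.82 ± 0.26 (limma adjusted p = 0.0537), which just missed the threshold. The KD3010 call was lost without DMSO array A (log2 difference 2.28), DMSO array B (1.85) or KD3010 array B (1.66). It held without KD3010 array A (2.47), unless the 5 arrays left were normalized and filtered again. The call was also lost without either GW1516 array, though the log2 difference then stayed at 2.06. The GW1516 difference was called in 13 of 25 alternatives, with the authors' normalization among them (3.16-fold, limma adjusted p = 0.000177). It passed without either KD3010 array (adjusted p = 0.0311), though without array A not after the 5 arrays left were normalized again (0.0522). It was not called without either DMSO array or either GW1516 array (0.257 to 0.536), with median scaling (0.0815), with no filter on dim probes (0.184) or with the replicate block (0.0759).

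The spread of Plin2 within KD3010 was larger than the error of a single array. The unnormalized intensity was 4636 on array A, with a standard error over its 22 beads of 556.0, and 8691 on array B, with a standard error over 28 beads of 866.2. On the DMSO arrays it was 2154 and 1588, with standard errors of 222.2 and 204.3, and on the GW1516 arrays 4562 and 6030, with standard errors of 578.0 and 519.8. All 4 agonist intensities were above both DMSO intensities before normalization as well. The bead errors cover the noise within 1 array and not the spread between arrays.

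Hilpda gave the same direction on both of its probes. The brighter probe ILMN_2926198 stood at log2 levels of 11.92 and 11.57 with DMSO, 13.37 and 13.39 with KD3010, and 13.25 and 13.13 with GW1516. The dimmer probe ILMN_1239221 stood at 9.42 and 9.46 with DMSO, 10.99 and 10.85 with KD3010, and 10.86 and 10.72 with GW1516. On both probes the 4 agonist arrays lay above both DMSO arrays, and the arrays of each agonist lay close together. Both arrays lay above DMSO in 21.5% of all probes tested with KD3010 and in 20.6% with GW1516.

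With KD3010 Hilpda rose 3.11-fold on the brighter probe, a log2 difference of 1.64 ± 0.18, and 2.79-fold on the dimmer one, 1.48 ± 0.16 (limma adjusted p = 0.0144 for both). With GW1516 it rose 2.72-fold, 1.45 ± 0.18, and 2.55-fold, 1.35 ± 0.16 (limma adjusted p = 0.0323 for both). Across the 6 arrays the 2 probes correlated at 0.986, as a description over arrays in 3 groups. Of 13 other ways of processing the arrays, 2 of which use equal values, the brighter probe was called in 12 with KD3010 and in 9 with GW1516. Leaving out any 1 of the 6 arrays ended the call in both comparisons on both probes, with adjusted p-values on the brighter probe between 0.0633 and 0.171 for KD3010 and between 0.0574 and 0.373 for GW1516. Its log2 difference then ranged from 1.46 to 1.81 for KD3010 and from 1.27 to 1.62 for GW1516.

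Plin5 was dim in these cells. The probe ILMN_3158565 stood at log2 levels of 6.13 and 5.69 with DMSO, 6.88 and 6.93 with KD3010, and 6.36 and 6.37 with GW1516. The KD3010 arrays were the highest, the GW1516 arrays came next and the groups did not overlap. Of all probes tested, 21.5% had both KD3010 arrays above both DMSO arrays and 20.6% had both GW1516 arrays above them. Both KD3010 arrays lay above both GW1516 arrays in 21.3%. The probe passed the filter through its agonist arrays alone, so its distance from DMSO is no independent evidence. Since both DMSO arrays were not above background, each took its dimmest detected signal as a floor. Against this floor the group mean on the background-corrected scale was 1.63-fold with KD3010 and 1.12-fold with GW1516. These floor-based folds hold on that scale only. They leave out the spread between arrays, so they are no minimum for a rise. The fitted differences were 0.99 ± 0.19 on the log2 scale (limma adjusted p = 0.123) and 0.45 ± 0.19 (adjusted p = 0.515), and neither was called. Their 95% intervals reached down to 1.49-fold with KD3010 and 1.02-fold with GW1516, below the floor-based folds. Without background correction the KD3010 difference was 1.24-fold in place of 1.99-fold. The GW1516 difference was then 1.10-fold in place of 1.37-fold, and both differences lay below the floor-based folds. With the authors' normalized values they were 1.26-fold and 1.10-fold. The other Plin5 probe, ILMN_2607215, was not detected on any array, with intensities between 208.6 and 241.1, and gave no comparison. It therefore neither repeats nor contradicts the first probe.

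**Figure D2:**
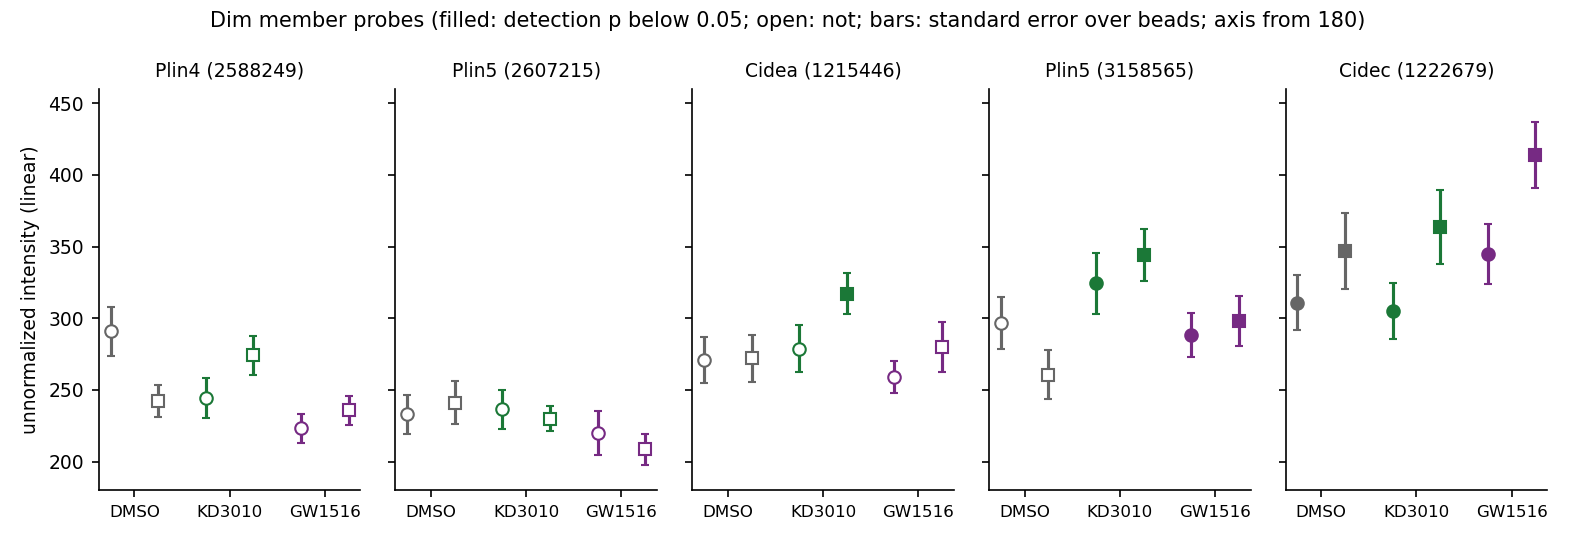
Unnormalized intensity on a linear axis that does not start at 0, with the standard error over the beads of a probe, for the 3 undetected probes and the dimmest 2 of the detected ones; circles are array A and squares array B. The Plin4 probe and the Plin5 probe ILMN_2607215 are open on every array, Cidea is filled on KD3010 array B alone, and the Plin5 probe ILMN_3158565 is filled on the 4 agonist arrays.

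Plin3 lay on opposite sides of DMSO under the agonists. Its log2 levels were 10.16 and 10.55 with DMSO, 10.57 and 10.57 with KD3010, and 9.90 and 10.04 with GW1516. The KD3010 arrays lay above both DMSO arrays and the GW1516 arrays below them, though the nearest arrays were close. Both GW1516 arrays lay below both DMSO arrays in 19.8% of all probes tested, and both KD3010 arrays above them in 21.5%. The difference from DMSO was 0.21 ± 0.18 with KD3010 (limma adjusted p = 0.696) and -0.39 ± 0.18 with GW1516 (adjusted p = 0.563), and neither was called.

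Plin4 was not detected on any array. Its intensities ran from 223.2 on GW1516 array A to 290.8 on DMSO array A, with detection p-values from 0.0739 to 0.494. At this signal over background no level or change of Plin4 was detectable.

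Of the CIDE genes, Cideb was the one with a clear signal. Its log2 levels were 9.38 and 9.84 with DMSO, 9.44 and 9.60 with KD3010, and 8.43 and 9.31 with GW1516. The KD3010 arrays lay within the DMSO range and both GW1516 arrays below it, with a wide gap between the GW1516 arrays. Both GW1516 arrays lay below both DMSO arrays in 19.8% of all probes tested. The log2 difference was -0.09 ± 0.28 for KD3010 (limma adjusted p = 0.938) and -0.74 ± 0.28 for GW1516 (adjusted p = 0.467), neither of which was called. The GW1516 value rested in large part on array A, since it was -0.31 without that array and -1.18 without array B.

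Cidec, which drives the growth of large droplets, was dim but detected throughout. Its log2 levels were 6.32 and 6.94 with DMSO, 6.58 and 7.15 with KD3010, and 7.20 and 7.57 with GW1516. The KD3010 arrays overlapped with DMSO and both GW1516 arrays lay above DMSO, as in 20.6% of all probes tested. The log2 difference was 0.23 ± 0.26 with KD3010 (limma adjusted p = 0.783) and 0.75 ± 0.26 with GW1516 (adjusted p = 0.448), and neither was called. Cidea, which is best known from brown fat and fatty liver, had intensities between 259.0 and 317.2 and was detected on KD3010 array B alone, so it was not tested.

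G0s2, the other inhibitor of ATGL in the set, showed no call. Its log2 levels were 9.86 and 10.25 with DMSO, 10.23 and 10.17 with KD3010, and 10.70 and 10.24 with GW1516, and both agonists overlapped with DMSO. The log2 difference was 0.14 ± 0.21 with KD3010 (95% interval -0.33 to 0.61, limma adjusted p = 0.845) and 0.42 ± 0.21 with GW1516 (-0.05 to 0.89, adjusted p = 0.577). These intervals reach to a 1.53-fold and a 1.85-fold rise, so changes of that size are within the error. Hilpda was called in both comparisons and G0s2 in neither, but the difference between the genes was not tested.

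**Figure D3:**
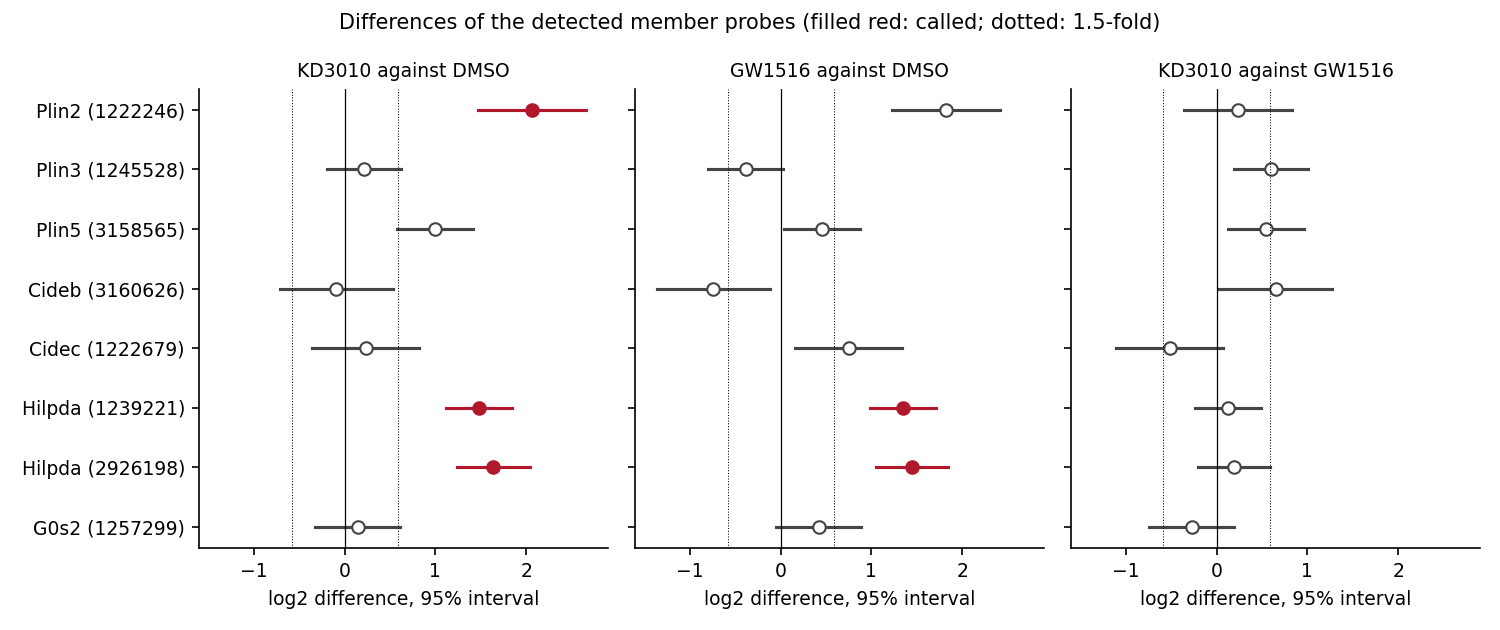
Log2 difference (point) with its 95% interval (bar) for the 8 detected probes in each of the 3 comparisons; filled red points were called and dotted lines mark 1.5-fold. The Plin2 interval for GW1516 lies wholly above 1.5-fold although its adjusted p = 0.0537 missed the threshold, and no probe is called between the agonists.

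KD3010 and GW1516 were also compared directly, again against the spread between arrays. Dose and duration are not known to match, so a difference could not be assigned to the agonists themselves. Over all 10530 probes 0% were called in limma's test, 0 probes in all, although 13.6% had an unadjusted p-value below 0.05. None of the 8 tested member probes was called, and Plin3, Cideb and Plin5 had an unadjusted p-value below 0.05. Plin2 differed by 0.24 on the log2 scale, with a 95% interval from -0.36 to 0.83, and its sign turned without KD3010 array B. The brighter Hilpda probe differed by 0.19 (-0.21 to 0.59) and the dimmer one by 0.13 (-0.24 to 0.49). These intervals do not show that the agonists act alike, since they leave room for a difference of 1.78-fold in Plin2 and 1.51-fold in Hilpda.

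The largest differences among the members between the agonists were in Cideb, Plin3 and Plin5. Relative to GW1516, Cideb was 1.57-fold higher under KD3010, or 0.65 ± 0.28 in log2 units (limma adjusted p = 0.355). Plin3 was 1.52-fold higher, 0.60 ± 0.18 (adjusted p = 0.251), and Plin5 1.46-fold higher, 0.54 ± 0.19 (adjusted p = 0.272). Cidec leaned the other way at -0.52 ± 0.26 (adjusted p = 0.424), as did G0s2 at -0.27 ± 0.21 (adjusted p = 0.603). In Cideb, Plin3 and Plin5 both KD3010 arrays lay above both GW1516 arrays, as in 21.3% of all probes tested, and in Cidec and G0s2 below them, as in 23.7%.

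The call of Plin2 and of Hilpda depended more on the settings than their size did. Over 25 alternatives the log2 difference of Plin2 ran from 1.65 to 2.47 with KD3010 and from 1.61 to 2.04 with GW1516, and 12 and 13 of the alternatives called it. For the brighter Hilpda probe the ranges were 1.46 to 1.82 and 1.27 to 1.62, with 12 and 9 alternatives calling it. In each of them the direction against DMSO was the same. On the same values, leaving out either array of the other agonist repeats the fit of only the 4 arrays compared. The alternatives are therefore not all distinct.

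**Figure D4:**
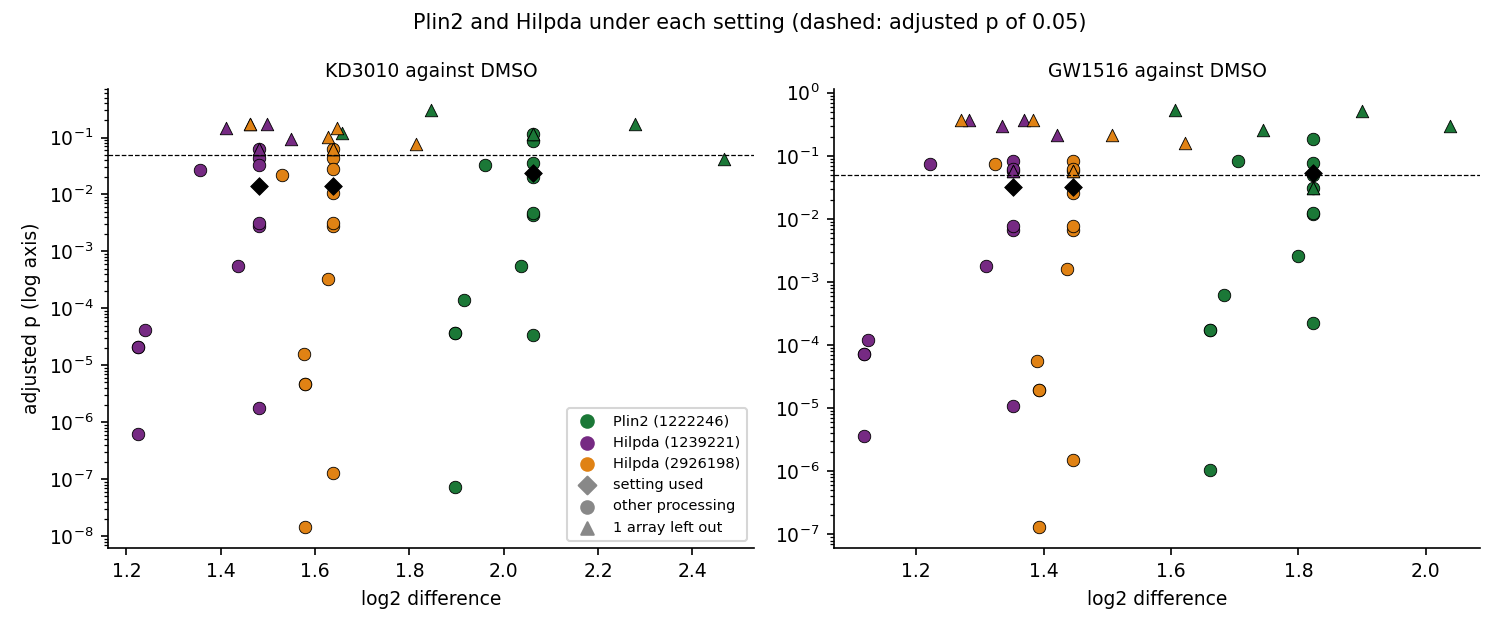
Adjusted p-value (log axis) against the log2 difference from DMSO for the Plin2 probe and both Hilpda probes under each setting. Black diamonds are the setting used, circles other ways of processing and triangles fits without 1 array on the same values; the points of both Hilpda probes lie above the dashed line at 0.05 in all fits without 1 array, and those of Plin2 with GW1516 lie on both sides of it in either kind of setting.

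The genes whose levels most resembled those of Plin2 over the 6 arrays were sought among the 158 probes of other named genes with an SD over arrays of at least 0.5. They were Nceh1, a cholesterol ester hydrolase (Pearson r = 0.950), Creb3l3, a transcription factor of fasting lipid metabolism (0.942), Mapre3, a microtubule end-binding protein (0.938), Ivl, a protein of the epidermal envelope (0.936), and Acadl, the long-chain acyl-CoA dehydrogenase (0.932). For Hilpda they were Creb3l3 (0.977), Nceh1 (0.970), Acadl (0.957), Ivl (0.955) and the carnitine transporter Slc22a5 (0.943). Within the set, Plin2 correlated with the brighter Hilpda probe at 0.967, with Plin5 at 0.864 and with Plin3 at -0.096. These are correlations over 6 arrays in 3 groups, chosen as the highest, and describe a shared order of the arrays only.

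Genes around the droplet were described by lists chosen for their role. Of 7 tested lipolysis genes none was called in either comparison with DMSO. With 0.104% and 0.095% of all probes called, no call among 7 is near the background share and is no result about these genes. Their median log2 difference was 0.20 with KD3010 and 0.44 with GW1516, against 0.00103 and 0.00385 for all probes. In each comparison 6 of 7 were above 0, against 50.1% of all probes with KD3010 and 50.6% with GW1516. Pnpla2, the lipase that Hilpda and G0s2 inhibit, differed by 0.20 with KD3010 (limma adjusted p = 0.681) and by 0.44 with GW1516 (adjusted p = 0.455). Its activator Abhd5 differed by -0.03 and 0.10. The highest mean over both agonists was that of Lipe, hormone-sensitive lipase, at 0.64 ± 0.21 (adjusted p = 0.309) and 0.58 ± 0.21 (adjusted p = 0.455), and the lowest that of Ces1d at 0.07 and -0.02.

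Genes of triglyceride and glycerolipid synthesis showed no call among 11 tested. This is near the share over all probes (0.104% and 0.095%) and is no result about these genes. Their median was 0.08 with KD3010 and 0.11 with GW1516, and 6 of 11 were above 0 in each. The acyltransferase gene Agpat3 had the highest mean over both agonists, at 0.71 ± 0.20 (limma adjusted p = 0.258) and 0.52 ± 0.20 (adjusted p = 0.490). Agpat2 had the lowest, at -0.35 and -0.25. Dgat1 and Dgat2, which make triglyceride, differed by 0.08 and -0.14 with KD3010 and by -0.53 and 0.11 with GW1516.

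The list of droplet formation and other droplet proteins likewise had no call among 20 tested genes. This too is near the share over all probes (0.104% and 0.095%) and is no result about these genes. The median of the list was 0.04 with KD3010 and 0.01 with GW1516, and 11 and 10 of the 20 genes were above 0. The seipin gene Bscl2, which shapes new droplets, differed by 0.10 and 0.31, and Fitm2, which helps them bud, by 0.16 and -0.04. On the brightest probes, the highest mean was that of the chaperone Hspa8 (0.32 and 0.31) and the lowest that of the lysosomal protein Lamp2 (-0.46 and -0.18). The dimmer Hspa8 probe ILMN_2918479 gave 0.09 and -0.27. Dimmer Lamp2 probes gave -0.25 and -0.44 (ILMN_2605666), -0.33 and -0.28 (ILMN_3074259), and 0.08 and 0.09 (ILMN_3153207).

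PPAR target genes outside the droplet had the most calls among the lists. Of 16 tested genes 2 were called higher with each agonist, Creb3l3 and the pyruvate dehydrogenase kinase gene Pdk4, and none lower. The share called over all probes was 0.104% with KD3010 and 0.095% with GW1516. Over the alternatives 0 to 4 genes of the list were called with KD3010 and 0 to 5 with GW1516. None was called with KD3010 without DMSO array B or either KD3010 array, nor with GW1516 without either GW1516 array. The median was 0.44 with KD3010 and 0.59 with GW1516. Of the 16 genes 13 and 15 were above 0, against 50.1% and 50.6% of all probes. Creb3l3 rose 4.14-fold and 3.95-fold (limma adjusted p = 0.00696 and 0.00463), and Pdk4 3.80-fold and 7.29-fold (adjusted p = 0.0144 and 0.00153). On dimmer probes Acadl rose 2.68-fold (ILMN_2783519, adjusted p = 0.0323) and Slc22a5 2.37-fold (ILMN_2834916, adjusted p = 0.0405) with GW1516. Their brightest probes, at 1.98-fold and 1.70-fold, were not called (adjusted p = 0.192 and 0.309). This list was written with earlier results for some of these genes known, so its direction is no independent evidence.

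Hilpda is also a known target of hypoxia-inducible factors, so genes of that response were set beside it. Of 11 tested, none was called, with a median of 0.02 with each agonist and 7 and 6 genes above 0. Vegfa differed by -0.45 with KD3010 and -0.03 with GW1516 on its brightest probe, and by -0.09 and 0.13 on the dimmer ILMN_3121255. Slc2a1 differed by -0.42 and 0.02, and the hydroxylase gene Egln3 by 0.03 and 0.02. The highest mean was that of Pdk1 (0.23 and 0.35) and the lowest that of Kdm3a (-0.43 and -0.21). With 0.104% and 0.095% of all probes called, 0 of 11 is near the background share and is no result about these genes.

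**Figure D5:**
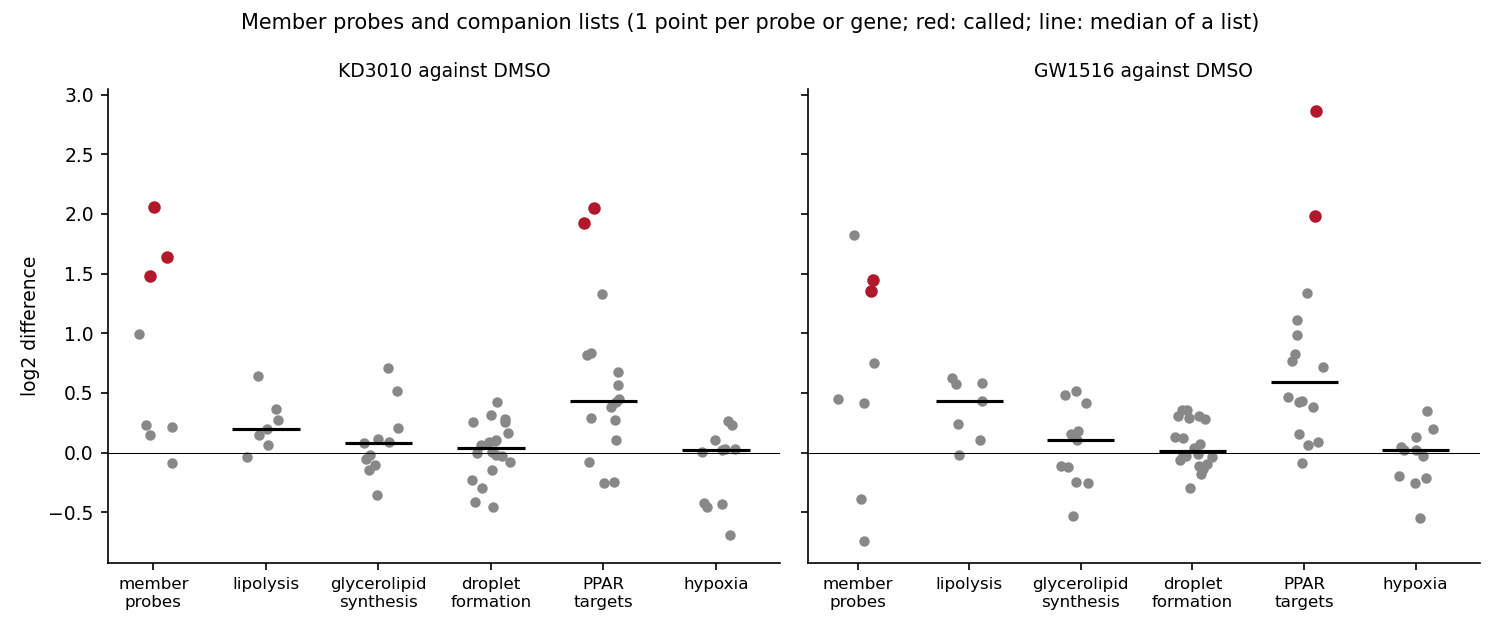
Log2 difference from DMSO of the 8 tested member probes and of each tested gene of the 5 companion lists (brightest probe per gene), with KD3010 on the left and GW1516 on the right. Red points were called and black lines are list medians; calls appear among the member probes and the PPAR targets alone.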

How the data were processed

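Expression was measured on 6 bead arrays. One deposited table gives, per the file headers, unnormalized mean intensities on a linear scale with their standard error and number of beads. The submitters' processing notes list GenomeStudio. The deposited detection p-value, per the file headers, compares a probe with the negative controls. Another deposited table holds intensities normalized by the authors, with no method named in the sources used here. They are linear, are not centred and have column medians of 257.8 to 257.9. Of its columns, 1 without a name was left out. Columns are named by treatment and letter. Letters A and B were tied to replicates 1 and 2 because 100% of the values of each normalized column equal those of 1 sample in the series matrix, against at most 0.00389% for any other sample.

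Unnormalized intensities went through limma 3.58.1 under R 4.3.3: normexp background correction from the detection p-values (offset 16), quantile normalization and log2. A probe was kept, as were 10530 of 25697, if both arrays of any group had a detection p under 0.05. One model covered the 6 arrays (lmFit, then eBayes; 3 residual and 6.48 prior degrees of freedom), with Benjamini-Hochberg adjustment across the kept probes. The code was tested on simulated data. Errors of log2 differences are standard errors. A fold against a group with no detected array used a floor. Each array of that group took the larger of its dimmest detected signal and the probe's own. The fold compares group means only and leaves out the spread between arrays, so it is no minimum for a change. The number of arrays limits the precision.

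Symbols came from the platform annotation, updated through Entrez identifiers: 23978 probes had 1 symbol, 0 several and 1719 none. List genes are represented by their brightest kept probe. Members and lists were chosen with earlier results of these data known. All member probes were named. From each list the called genes and otherwise the highest and lowest mean over both agonists were named by rule, and Pnpla2, Abhd5, Dgat1, Dgat2, Bscl2, Fitm2, Vegfa, Slc2a1 and Egln3 for their role, after values were seen. Alternatives changed the background correction, normalization, filter, variance model, arrays in the fit and probe choice, or left out 1 array.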

Additional observations from a re-analysis of the deposited data

Results flagged for a closer look

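Plin3 was on opposite sides of DMSO under the 2 agonists on every array, higher on both KD3010 arrays and lower on both GW1516 arrays. The nearest DMSO and KD3010 arrays were close, at log2 levels of 10.55 and 10.57. Neither difference from DMSO was called (limma adjusted p = 0.696 with KD3010 and 0.563 with GW1516). Of all probes tested, 21.5% had both KD3010 arrays above both DMSO arrays and 19.8% had both GW1516 arrays below them. The direct difference between the agonists was 0.60 on the log2 scale, higher with KD3010, and did not pass over all probes (limma adjusted p = 0.251; over the alternatives the adjusted p lay between 0.0368 and 0.510). The lowest of these came with a change below 1.5-fold, at 1.42-fold, and no alternative called it.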

How the results depend on the processing

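The 2 arrays per group, and for Plin5, Cidec, Plin4 and Cidea the low signal over background, limited what could be called. With KD3010 against DMSO 11 probes were called, and 42 without background correction, 21 with an offset of 50, 41 with the authors' normalized values or the equal series matrix values, 27 with a detection p below 0.01, 56 with a trended robust variance and 1 with only the 4 arrays compared. With GW1516 against DMSO 10 were called, and 2 with median scaling or with no filter on dim probes, 16 with the authors' or series matrix values, 19 with the trended robust variance and 3 with only the 4 arrays. Between the agonists 0 were called, and 47 without background correction, 15 with an offset of 50, 48 with the authors' or series matrix values, 8 with detection on all 6 arrays, 11 with a detection p below 0.01 and 73 with the trended robust variance. None of the probes called between the agonists under these alternatives was a member. Leaving out 1 array gave 0 to 1 calls with KD3010 and 0 to 3 with GW1516, also when normalization and filter were repeated on the 5 arrays left (0 or 1, and 0, 1, 2 or 3), and 0 between the agonists. The lone array of a group was then assumed to vary like the others.

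Median scaling moved the median of all probes by -0.12 with KD3010 and -0.09 with GW1516. Besides the fits without 1 array, the Plin2 call with KD3010 was lost with no filter (adjusted p = 0.0866) and with only the 4 arrays (0.117), and the Hilpda call with KD3010 with only the 4 arrays (0.0633 for the brighter probe). The Hilpda calls with GW1516 were lost with median scaling, no filter, only the 4 arrays or the replicate block (0.0574 to 0.0828 for the brighter probe). Over the alternatives the list medians of PPAR targets ran from 0.29 to 0.60 with KD3010 and from 0.42 to 0.60 with GW1516, and those of lipolysis genes from 0.074 to 0.23 and from 0.18 to 0.48. The medians of the other 3 lists lay between -0.17 and 0.13 and crossed 0.

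With the replicate number as a block, 9, 2 and 0 probes were called in the 3 comparisons, and on the series matrix values 47, 29 and 54. Deviations of same-numbered arrays were nearly uncorrelated over all kept probes (-0.00695, -0.00376 and 0.00861). The labels give these arrays only a shared number, and whether they were paired is not known.

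The sign turned in 5 cases, none of them called. With KD3010 against DMSO, leaving out 1 array gave -0.32 to 0.14 for Cideb (above 0 without DMSO array B), -0.075 to 0.54 for Cidec (below 0 without DMSO array A, and -0.050 without KD3010 array B) and -0.051 to 0.34 for G0s2 (below 0 without DMSO array A). Between the agonists it gave -0.17 to 0.65 for Plin2 (below 0 without KD3010 array B). With normalization repeated these values were 0.14, -0.072, -0.048, -0.051 and -0.17, and the cause was not tested. The series matrix fits and the repeated normalization were chosen after seeing the data.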
